A study of Mus musculus with 12 samples.

Results

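The NMDA receptor subunit genes are the 7 mouse genes that code for the channel blocked by memantine, the drug given in this study: Grin1, Grin2a, Grin2b, Grin2c, Grin2d, Grin3a, and Grin3b. They were chosen by gene symbol, and all 7 had a row among the 19312 genes of the deposited expression table. RNA was sequenced from 12 male C57BL/6N mice at postnatal day 25, 3 in each of 4 groups: WT mice given vehicle (WT-Veh), WT mice given memantine (WT-Mem), homozygous Shank2-KO mice given vehicle (KO-Veh), and homozygous Shank2-KO mice given memantine (KO-Mem). The mutation removes exons 6 and 7 of Shank2, which codes for an excitatory postsynaptic scaffold protein. Memantine was given by mouth at 20 mg/kg, in 2 daily doses over postnatal days 7 to 21, and every group received the 0.1% saccharin vehicle, so that the brains were taken after dosing had ended. Each library came from 1 brain. The labels call the tissue whole brain, while the study's methods describe forebrain from which the cerebellum and the brain stem beneath it were removed.

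An NMDA receptor is a glutamate-gated cation channel built from GluN1, the subunit coded by Grin1 that every conventional receptor needs, together with GluN2 subunits (Grin2a to Grin2d) or GluN3 subunits (Grin3a and Grin3b). GluN1 and GluN3 bind glycine or D-serine, and GluN2 binds glutamate. The GluN2 subunit sets how fast the channel closes and how strongly magnesium blocks it, and in the forebrain GluN2B is the early partner that GluN2A joins as synapses mature. Memantine enters the open channel and binds near the asparagine at the tip of the pore loop, a place that also holds magnesium.

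The pore loop is the stretch of these genes that lies at the site of drug block, and its coding strand is shown here for 6 of them as 30 bases with the codon of the tip position in capitals. The windows were read from GENCODE M21 transcripts on GRCm38, and each one lies within a single coding exon.
Grin1: tggggcgtcctgctcAACtctggcattggg
Grin2a: tggggcctggtcttcAACaattctgtgccc
Grin2c: tgggcactggtcttcAACaactctgttccc
Grin2d: tgggccctggtgttcAACaactccgtgcca
Grin3a: tatgcccttctgtttGGCagaacagcagcc
Grin3b: tacgccattctcttcGGAcgcactgtctcc
The tip codon was AAC, for asparagine, in Grin1, Grin2a, Grin2c, and Grin2d. It was GGC in Grin3a and GGA in Grin3b, both of which code for glycine. Grin2c shared 26 of the 30 bases with Grin2a, 25 with Grin2d, and 13 with Grin1. Grin3a and Grin3b shared 19 of the 30 bases with each other, and Grin3b shared 9 with Grin1. The windows lay at chr2:25297374-25297403 in exon 14 of Grin1, chr16:9653549-9653578 in exon 10 of Grin2a, and chr11:115253851-115253880 in exon 11 of Grin2c. Those of the other genes shown lay at chr7:45854381-45854410 in exon 9 of Grin2d, chr4:49770572-49770601 in exon 3 of Grin3a, and chr10:79974531-79974560 in exon 3 of Grin3b. All lay on the minus strand except that of Grin3b.

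The deposited values are normalized read counts. The spacing of low values varied from gene to gene, so exact read counts were not recovered, and the size of 1 read was not measured. Shank2 itself averaged between 7880 and 8000 in both WT groups and between 2900 and 2927 in both KO groups (n = 3 each, SD 178 to 697), so that it was lower in mice labelled KO; the deletion covers 2 exons, and reads of the others still count. No member was listed at 0 in any mouse. Some libraries stood apart in ways that touch the results below. KO-Mem mouse 1 had the largest median size of log2 deviation (0.190, against 0.080 to 0.158 in the other mice). KO-Veh mouse 3 had a summed value of 3309 over 7 cerebellar marker genes, against 319 to 574 in the other mice, which is RNA of a part that the methods say was removed. WT-Mem mouse 3 was low for genes with transcripts of at least 10000 bases (median log2 deviation of -0.22 over 390 genes, against -0.08 to 0.07 in the other mice), and WT-Veh mouse 3 had 6.10% of its summed value in 10 genes, against 4.35% to 5.04%.

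The levels of the subunit genes spanned from among the highest in the brain to low values. Grin1 averaged 22200 ± 1260 (SD, n = 12), higher than 99.3% of all genes, and Grin2b averaged 17983 ± 2249. Grin2a averaged 5903 ± 517, Grin3a 2024 ± 120, Grin2c 1612 ± 181, and Grin2d 1103 ± 63.8 (SD, n = 12 for each). Grin3b averaged 20.7 ± 9.29 (SD, n = 12), which lay above only 16.5% of genes. Grin3b is best known from motor neurons of the brain stem and spinal cord.

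Because longer transcripts give more reads, levels between genes were compared per 1000 bases. Over the median length of the coding transcripts, Grin2b came first at 11367 ± 1422 per 1000 bases and Grin1 second at 5518 ± 313 (SD, n = 12). This order rested on the length chosen, since the annotated Grin2b transcripts have a median of 1582 bases but the longest has 24060. Per longest transcript, Grin1 was first at 5192 ± 295 per 1000 bases and Grin2b second at 747 ± 93.5, and over the union of exons Grin1 was again first. Grin2a ranked next after these, followed by Grin2c, and Grin3b came last under all 3 lengths. Over the longest transcripts, Grin2a had 403 ± 35.3, Grin2c 329 ± 37.0, Grin3a 270 ± 16.0, Grin2d 203 ± 11.8, and Grin3b 6.30 ± 2.83 per 1000 bases. Grin2a and Grin2c differed by about the sum of their SDs on that length, and Grin3a and Grin2d exchanged places over the union of exons, where they had 165 ± 9.76 and 166 ± 9.59. The levels per length are values of annotated gene models, since which transcripts the brain used was not measured here.

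**Figure D1:**
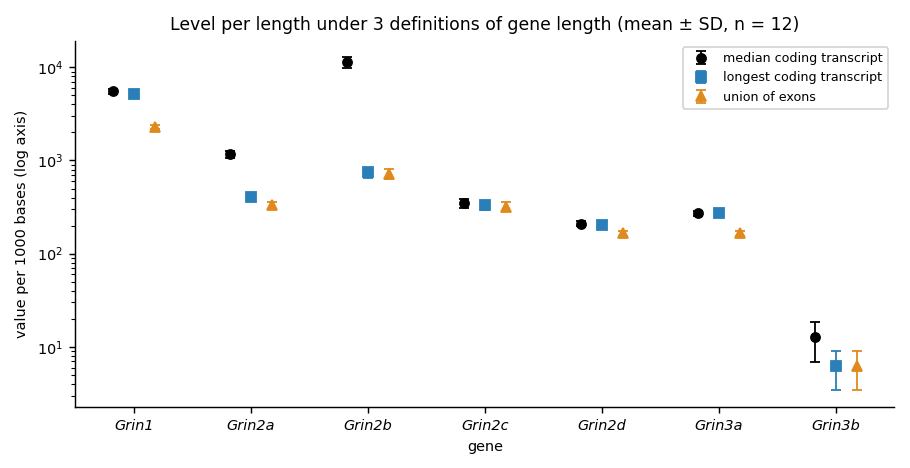
Mean value per 1000 bases (log axis) of each subunit gene over 12 mice, with SD, for 3 definitions of gene length: the median coding transcript, the longest coding transcript and the union of exons. Grin2b moves from 11367 to 747 between the median and the longest transcript, while Grin3b stays last in each.

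Differences between the groups were tested with limma on log2 of the value plus 1, and a gene with a Benjamini-Hochberg adjusted p below 0.05 over all genes tested is counted as changed. Within vehicle and within memantine, KO and WT mice were compared as Veh-K/W and as Mem-K/W, respectively. Within a genotype, memantine and vehicle were compared in KO-M/V and WT-M/V, whereas KO-M/WT-V and WT-M/KO-V cross genotype and treatment. Genotype over both treatments and treatment over both genotypes set 6 mice against 6. The comparisons share mice, so they are not independent of each other, and values of a member in several of them are given side by side only.

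The one subunit gene that changed was Grin2c, which was lower in Shank2-KO mice. GluN2C makes channels with weak magnesium block, and its RNA is known from granule cells of the cerebellum and, in the forebrain, from astrocytes and scattered neurons. Grin2c (ENSMUSG00000020734, chromosome 11, 115249169 to 115267243) had values of 1857, 1689, and 1864 in WT-Veh mice and 1681, 1708, and 1640 in WT-Mem mice. The KO mice had 1498, 1620, and 1633 on vehicle and 1219, 1406, and 1535 on memantine. All 6 KO mice lay below all 6 WT mice, although the highest KO mouse (1633) and the lowest WT mouse (1640) were close.

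Over both treatments, Grin2c averaged 1485 ± 155 in KO and 1740 ± 96.0 in WT mice (SD, n = 6), which is -0.23 on the log2 scale (SE 0.057, 95% interval -0.35 to -0.11, adjusted p = 0.0225 from limma), or 0.851 of the WT level. In this comparison 1907 of 17655 genes changed, which is 10.8%, 863 being higher and 1044 lower, so that 1 changed gene among the 7 members is near the share over all genes. When each mouse was scaled to the same sum, 1108 genes were higher and 857 lower, and Grin2c was still lower (log2 fold change -0.22, adjusted p = 0.0302). Groups of 6 that do not overlap occurred in 4.06% of genes, and Grin2c was the only member among them. The call was lost when the variance was not allowed to depend on the mean (adjusted p = 0.0508), and leaving out any one mouse gave log2 fold changes between -0.26 and -0.19 (adjusted p between 0.0102 and 0.0494).

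Within each treatment, the Grin2c difference had the same sign and did not pass the threshold. It was -0.19 on the log2 scale in Veh-K/W (SE 0.071, adjusted p = 0.283) and -0.28 in Mem-K/W (SE 0.091, adjusted p = 0.139). Without KO-Mem mouse 3, the highest of its group, the Mem-K/W difference was -0.36 (adjusted p = 0.0329 from limma). Without KO-Mem mouse 1, the lowest of its group, it was -0.19 (adjusted p = 0.381). Leaving out any other mouse gave adjusted p between 0.198 and 0.329. The difference between both genotype effects, the interaction, was -0.09 on the log2 scale (95% interval -0.34 to 0.15, adjusted p = 0.953).

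Grin2c had lower means with memantine in both genotypes, and the difference did not pass the threshold. It averaged 1676 ± 34.4 in WT-Mem against 1803 ± 98.9 in WT-Veh mice and 1387 ± 159 in KO-Mem against 1584 ± 74.3 in KO-Veh mice (SD, n = 3). The log2 fold change over both genotypes was -0.15 (95% interval -0.27 to -0.03, unadjusted p = 0.0184 and adjusted p = 0.512 from limma). The most distant groups, KO-Mem and WT-Veh, differed by -0.38 (SE 0.096, adjusted p = 0.0556 from limma). This passed the threshold when the spread was estimated from all 12 mice (adjusted p = 0.0126). It also passed without KO-Mem mouse 3 (log2 fold change -0.46, adjusted p = 0.015). It did not pass under the other alternatives. The adjusted p was 0.156 when the variance was not allowed to depend on the mean. Without KO-Mem mouse 1 the log2 fold change was -0.29 (adjusted p = 0.169).

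**Figure D2:**
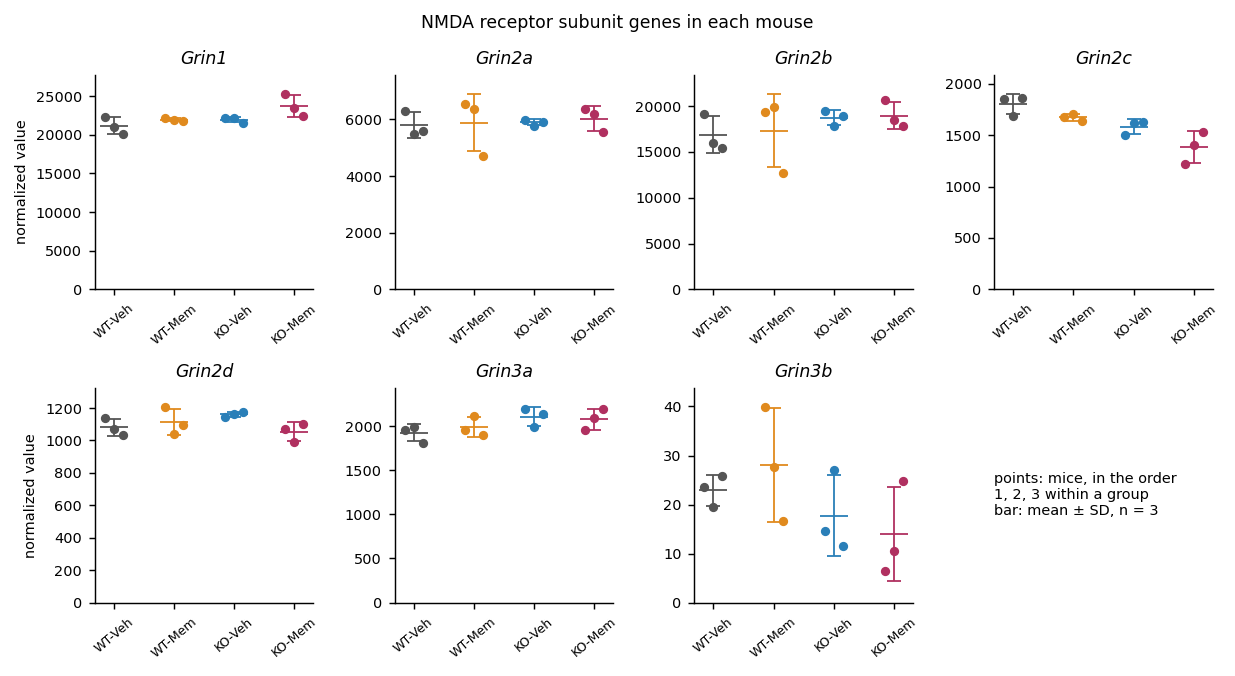
Normalized value of each subunit gene in each mouse (points, in the order of mice 1 to 3 within a group) with the group mean and SD (n = 3), on axes that start at 0. In the Grin2c panel the KO mice lie between 1219 and 1633 and the WT mice between 1640 and 1864, while the groups of most other genes overlap and WT-Mem mouse 3 lies apart for Grin2a and Grin2b.

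Some markers of astrocytes and oligodendrocytes were also called by genotype over both treatments, where 10.8% of all genes changed. Of 6 astrocyte markers, Aqp4 (the astrocyte water channel, log2 fold change -0.56, adjusted p = 0.00516 from limma) and Gja1 (the gap junction protein connexin 43, -0.22, adjusted p = 0.0389) were called lower in KO mice over both treatments. None was called higher, although 2 of the other 4 had positive values, and the list median was -0.14. Aqp4 was called and Gja1 was not without KO-Veh mouse 3, without WT-Mem mouse 3, and without WT-Veh mouse 3. The summed level of the 6 lay between 32543 and 35916 in WT and between 31197 and 32978 in KO mice, so that the ranges overlapped. Of 5 oligodendrocyte markers, 4 were called lower in KO mice and 0 had positive values. Their sums were 256660 to 356087 in WT and 205765 to 266056 in KO mice. Of the 7 cerebellar markers none passed the threshold, although all 7 had positive values, with a list median of 0.51. Without KO-Veh mouse 3, 6 of them were tested and the median was 0.08. Gabra6, which marks cerebellar granule cells, was at 0 in at least 1 mouse. Grin2c in KO-Veh mouse 3, the mouse with cerebellar RNA, was the highest of the KO mice, and without that mouse the difference was -0.25 (adjusted p = 0.0417). In pieces of brain, fewer cells of a type and less RNA per cell cannot be told apart, and the part of these cell types in the Grin2c difference was not tested.

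Grin1 codes for the subunit shared by the receptors, and its level was nearly even over the mice. It had values of 22317, 21010, and 20159 in WT mice on vehicle and 22198, 21872, and 21791 in WT mice on memantine. Values in KO mice were 22119, 22147, and 21582 on vehicle and 25268, 23516, and 22420 on memantine. The KO-Mem mice were the highest 3 of the 12 and did not overlap any other group, although the lowest of them (22420) and WT-Veh mouse 1 (22317) were close. Groups that do not overlap occurred in 13.9% of genes in KO-M/V, 26.2% in Mem-K/W, and 31.1% in KO-M/WT-V. Against KO-Veh mice, the Grin1 level in KO-Mem mice was 1.08 times as high (95% interval 0.998 to 1.17, unadjusted p = 0.054 and adjusted p = 0.56 from limma), which did not pass the threshold. Against WT-Mem mice it was also 1.08 times as high (95% interval 0.989 to 1.18, adjusted p = 0.293), and against WT-Veh mice 1.12 times (95% interval 1.01 to 1.25, adjusted p = 0.168). Without KO-Mem mouse 1, the highest of its group, the Grin1 log2 fold change in KO-M/V went from 0.11 to 0.07.

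Over both treatments Grin1 was 1.06 times as high in KO as in WT mice (95% interval 0.999 to 1.12, adjusted p = 0.176), and over both genotypes 1.06 times as high with memantine (95% interval 0.999 to 1.12, adjusted p = 0.579). The span of Grin1 overlaps that of the antisense gene Grin1os on the other strand. Strand-aware counting is not stated and overlap of exons was not checked, so reads of both may not be told apart. The spans of Grin2b, Grin2c, and Grin3a also overlap those of other annotated genes.

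Grin2a and Grin2b, the main GluN2 genes of the forebrain, varied together from mouse to mouse. Grin2b had values of 19167, 15993, and 15422 in WT mice on vehicle and 19341, 19924, and 12721 in WT mice on memantine. In KO mice they were 19460, 17887, and 18921 on vehicle and 20653, 18461, and 17847 on memantine. Grin2a had 6315, 5485, and 5577 in WT mice on vehicle and 6557, 6378, and 4722 in WT mice on memantine. KO mice gave 5998, 5785, and 5923 on vehicle and 6365, 6186, and 5547 on memantine. The lowest value of both genes was in WT-Mem mouse 3, the mouse that was low for long transcripts. Both Grin2a and Grin2b have a longest transcript above 10000 bases.

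Neither gene passed the threshold in any of the 9 comparisons. Grin2b was 1.12 times as high in KO as in WT mice over both treatments (95% interval 0.974 to 1.28, adjusted p = 0.268 from limma), and without WT-Mem mouse 3 its log2 fold change went from 0.16 to 0.07. Grin2a was 1.03 times as high (95% interval 0.925 to 1.14, adjusted p = 0.751), and its log2 fold change turned from 0.04 to -0.03 without that mouse. With memantine, Grin2b was 1.01 times as high (95% interval 0.882 to 1.16) and Grin2a 1.01 times as high (95% interval 0.913 to 1.13) over both genotypes. The change of Grin2b with memantine in WT mice was 0.02 on the log2 scale with WT-Mem mouse 3 and 0.23 without it (adjusted p = 0.998 and 0.828).

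The ratio of Grin2b to Grin2a is a usual measure of receptor maturation, and a scaling factor shared by all genes of a library cancels in it. Normalization factors that differ from gene to gene would not cancel, and their part in the ratio was not tested. The ratio of the values was 3.04, 2.92, and 2.77 in WT mice on vehicle and 2.95, 3.12, and 2.69 in WT mice on memantine. The KO values were 3.24, 3.09, and 3.19 on vehicle and 3.24, 2.98, and 3.22 on memantine. The vehicle groups did not overlap, with KO above WT, and the memantine groups did. On the log2 scale the ratio was 1.66 ± 0.048 in KO and 1.54 ± 0.080 in WT mice (SD, n = 6), a difference of 0.12 with a p of 0.0108 in an exact 2-sided permutation test and 0.0866 after adjustment over the 8 comparisons made of the ratio. With 3 mice a side the exact test cannot go below 0.1, the value it gave for the vehicle groups (difference of 0.13), while the memantine groups differed by 0.11 (exact p = 0.2). Memantine against vehicle over both genotypes gave a difference of -0.003 (exact permutation p = 0.95, n = 6).

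The lowest ratio, 2.69, was again that of WT-Mem mouse 3, and the next lowest, 2.77, that of WT-Veh mouse 3. These mice also had the lowest deviations of long transcripts, -0.22 and -0.08, and the longest Grin2b transcript is longer than that of Grin2a. Without WT-Mem mouse 3 the difference between KO and WT mice was 0.097 on the log2 scale. The part of transcript length in the ratio was not tested.

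**Figure D3:**
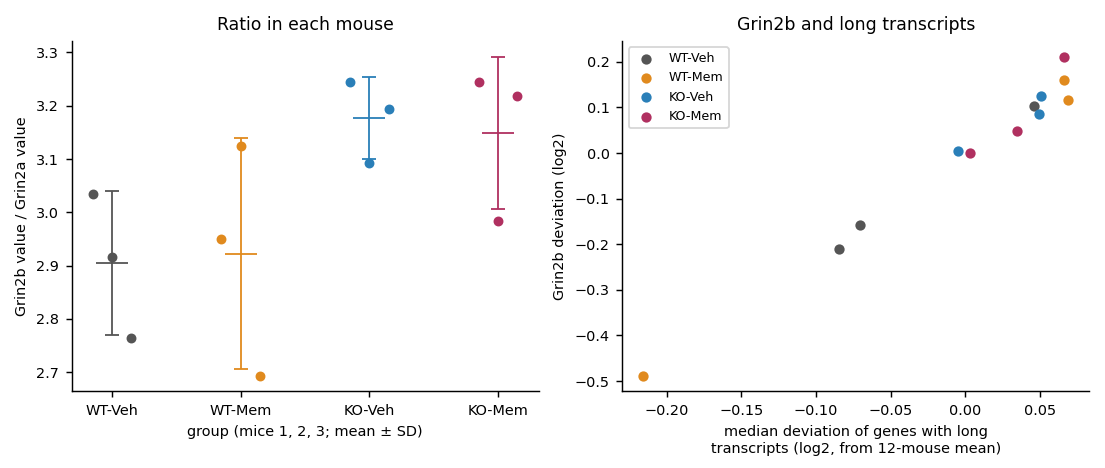
Left, the Grin2b value divided by the Grin2a value in each mouse with the group mean and SD (n = 3), on an axis that does not start at 0. Right, the log2 deviation of Grin2b from its mean over 12 mice against the median log2 deviation of 390 genes with transcripts of at least 10000 bases, where WT-Mem mouse 3 lies lowest on both axes.

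Grin2d codes for the slow GluN2 subunit known from interneurons and from deep brain regions. Its values were 1136, 1071, and 1036 in WT mice on vehicle and 1204, 1041, and 1097 in WT mice on memantine. In the KO groups they were 1143, 1165, and 1177 on vehicle and 1069, 993, and 1103 on memantine. The KO-Veh mice lay above all WT-Veh and all KO-Mem mice, while 20.4% of genes in Veh-K/W and 13.9% in KO-M/V did not overlap between the groups. The log2 fold change was 0.10 in Veh-K/W (adjusted p = 0.514) and -0.14 in KO-M/V (95% interval -0.29 to 0.02, adjusted p = 0.569), and the interaction was -0.18 (95% interval -0.41 to 0.04, unadjusted p = 0.105 and adjusted p = 0.947 from limma). None of these passed the threshold. The span of Grin2d overlaps that of Kdelr1 on the other strand, whose reads may not be told apart where exons overlap, which was not checked.

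Grin3a codes for a glycine-binding subunit that lowers calcium entry and is known for its peak in early postnatal life. It had values of 1960, 1994, and 1813 in WT mice on vehicle and 1957, 2115, and 1898 in WT mice on memantine. Among KO mice they were 2191, 1989, and 2140 on vehicle and 1953, 2087, and 2193 on memantine. The groups overlapped in every comparison. Over both treatments it was 1.07 times as high in KO mice (95% interval 0.995 to 1.15, adjusted p = 0.199), and memantine over both genotypes gave 1.01 times (95% interval 0.940 to 1.09, adjusted p = 0.951).

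Grin3b had low values that spread widely. They were 23.5, 19.5, and 25.8 in WT mice on vehicle and 39.8, 27.7, and 16.6 in WT mice on memantine. The KO groups had 14.6, 27.1, and 11.5 on vehicle and 6.53, 10.6, and 24.8 on memantine. The genotypes overlapped, although 4 of the KO mice lay below every WT mouse. Over both treatments Grin3b averaged 15.9 ± 8.27 in KO and 25.5 ± 8.11 in WT mice (SD, n = 6), and its log2 fold change was -0.75 (SE 0.32, unadjusted p = 0.0351 and adjusted p = 0.138 from limma). Memantine over both genotypes gave -0.11 on the same scale (95% interval -0.80 to 0.58). Tmem259 overlaps Grin3b on the other strand, and its reads may be part of these small values.

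Across all comparisons, Grin2c in genotype over both treatments was the only call among the members. In Veh-K/W no member was called, as against 0.0283% of all genes, 1 member had an unadjusted p below 0.05 (14.4% of genes), and Grin2c (lower) and Grin2d (higher) did not overlap between the groups, as did 20.4% of genes. In Mem-K/W no member was called (0.068% of genes), 1 had an unadjusted p below 0.05 (21.0% of genes), and Grin1 (higher) and Grin2c (lower) did not overlap (26.2% of genes). In KO-M/WT-V no member was called (3.37% of genes), Grin1 and Grin2c had an unadjusted p below 0.05 (25.9% of genes), and the same pair did not overlap (31.1% of genes). A count of 2 in 7 members that did not overlap is near the share over all genes in each of these comparisons.

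In KO-M/V no member was called and none of the 17707 genes tested was (0.0%), 0 members and 1573 genes (8.88%) had an unadjusted p below 0.05, and Grin1 (higher) and Grin2d (lower) did not overlap between the groups (13.9% of genes). In WT-M/V no member was called (0.0114% of genes), 0 had an unadjusted p below 0.05 (3.97% of genes), and 0 lay apart between the groups (9.34% of genes). In WT-M/KO-V no member was called (0.0227% of genes), 0 had an unadjusted p below 0.05 (8.94% of genes), and Grin2c lay apart (14.9% of genes). Treatment over both genotypes called no member and no gene (0.0%), with Grin2c as the 1 member and 1519 genes (8.60%) at an unadjusted p below 0.05, and 0 members lay apart (0.17% of genes). The interaction called no member and no gene (0.0%), with 0 members and 840 genes (4.76%) at an unadjusted p below 0.05.

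The median log2 fold change of the 7 members was 0.04 in genotype over both treatments, beside 0.004 over all genes tested, and 0.01 in treatment over both genotypes, beside 0.001 over all genes. The median size of the change, regardless of sign, was 0.10 for the members and 0.13 for all genes by genotype, and 0.05 and 0.08 by treatment.

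**Figure D4:**
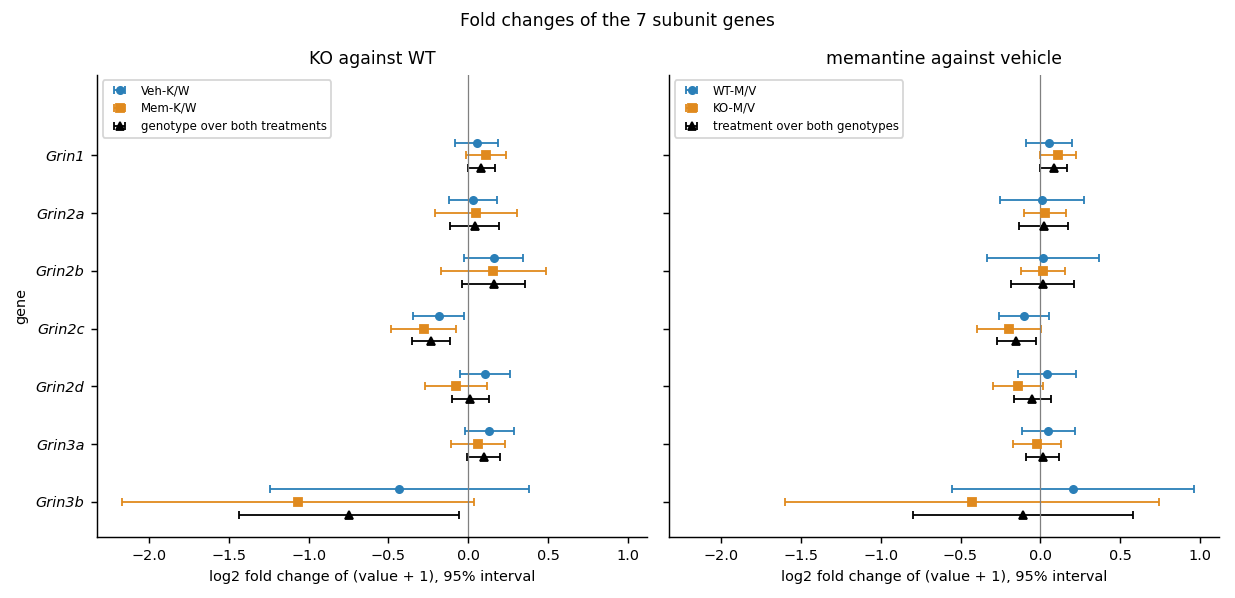
Log2 fold change of (value + 1) with its 95% interval for the 7 subunit genes, on the left for KO against WT mice and on the right for memantine against vehicle, each within both arms (6 mice) and pooled (12 mice). The pooled Grin2c interval on the left runs from -0.35 to -0.11, most other intervals include 0, and those of Grin3b are the widest.

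Among the members, the pair whose values ran most alike over the 12 mice was Grin2a and Grin2b (Pearson r = 0.93, Spearman rho = 0.88, n = 12), and r was 0.85 without WT-Mem mice 1 and 3, the farthest in Grin2a. Grin1 and Grin2c ran opposite to each other (r = -0.86, rho = -0.64), and r was -0.55 without KO-Mem mouse 1 and WT-Veh mouse 3, so that its size rested in part on those mice. All points share the normalization over the same 12 libraries. The mouse with the highest Grin1, KO-Mem mouse 1, had the lowest Grin2c and the lowest Grin3b.

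Of the 17654 other genes, those most like Grin1 over the 12 mice were Scaf1 (Pearson r = 0.95), Fbxl16, and Slit1. Those most like Grin2a were Fstl4 (r = 0.98), Camk4, and Zkscan1, and those most like Grin2b were Grik2, which codes for a kainate receptor subunit (r = 0.98), Dnajc6, and Herc1. The nearest to Grin2c were the predicted genes Gm29514 (r = 0.97) and Gm29084 and then Cat, which codes for catalase (r = 0.96). Those nearest to Grin2d were Slc9a9 (r = 0.86), Zfp597, and Gm36529, to Grin3a Nkap (r = 0.92), Ypel1, and Slc8a3, and to Grin3b Mafg (r = 0.96), Smim10l1, and Plekha3. These are the highest of many correlations over 12 mice and describe likeness only.

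Genes that work around the receptor were described from 5 lists that hold 76 genes, of which 74 were tested. The lists were chosen with earlier results of these data known, so an excess of calls over the share of all genes was not tested. In genotype over both treatments 12 of the 74 changed, 3 higher and 9 lower in KO mice, which is 16.2% against 10.8% of all genes. In KO-M/WT-V 4 of 73 changed (5.48%, against 3.37% of all genes), Rasgrf1 and Slc1a6 being higher and Slc7a10 and Phgdh lower. In the other 7 comparisons none of the list genes changed. The count by genotype leaned on single mice, being 5 without KO-Veh mouse 3 (694 over all genes) and 8 without WT-Mem mouse 3 (1072 over all genes), and it was 12 without WT-Veh mouse 3.

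Of 16 genes for the supply of the co-agonists glycine and D-serine, 4 were called lower in KO mice and none was called higher, with a list median of -0.11 on the log2 scale beside 0.004 over all genes and 3 of 16 at positive values. The list median was 0.003 in Veh-K/W, with 9 of 16 at positive values, and -0.19 in Mem-K/W, with 2 of 15, and no gene of the list was called in either. Its median in the interaction was -0.16, beside -0.005 over all genes, with no call. Slc7a10, a carrier of D-serine and glycine across the membrane, averaged 706 ± 166 in KO and 885 ± 79.7 in WT mice (SD, n = 6), and its log2 fold change was -0.36 (adjusted p = 0.0329 from limma). Gldc, the enzyme of the glycine cleavage system that removes carbon dioxide from glycine, had a log2 fold change of -0.35 (adjusted p = 0.0169). Phgdh, the first enzyme of serine synthesis, had -0.22 (adjusted p = 0.0246), and Slc6a9, the glycine transporter GlyT1, -0.21 (adjusted p = 0.0278). These genes are known mostly from astrocytes, whose markers are given above. With memantine over both genotypes, Slc7a10 and Phgdh had the smallest unadjusted p of the list (0.0023 and 0.00408, both with adjusted p = 0.416), with log2 fold changes of -0.36 and -0.19. Without KO-Veh mouse 3, Gldc was the only one of the 4 still called by genotype, without WT-Mem mouse 3 Gldc and Phgdh were, and without WT-Veh mouse 3 Slc7a10 was not.

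Of 26 scaffold proteins and regulators of the receptor, 1 was called higher and 3 were called lower in KO mice, with a median of 0.02 and 15 of 26 at positive values. Rasgrf1, the exchange factor for Ras that couples GluN2B to ERK signalling, averaged 16149 ± 1507 in KO and 13136 ± 912 in WT mice (SD, n = 6), and its log2 fold change was 0.30 (adjusted p = 0.00833 from limma). Homer1, which ties Shank proteins to metabotropic glutamate receptors, had -0.36 (adjusted p = 0.0268), Lin7b -0.30 (adjusted p = 0.0275), and Ptpn5, the phosphatase STEP that acts on GluN2B, -0.18 (adjusted p = 0.0385). Without KO-Veh mouse 3 only Rasgrf1 of these 4 was still called, and without WT-Mem mouse 3 Rasgrf1 and Homer1 were. Homer1 has a short activity-induced form and long forms, which gene values do not separate. By treatment, Rasgrf1 and Kif17, the motor that carries GluN2B, had the smallest unadjusted p of the list (0.0325 and 0.0919, adjusted p = 0.536 and 0.629), and log2 fold changes of 0.13 and 0.08.

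Of 11 genes for the handling of glutamate, 7 had positive values by genotype and 1 was called higher in KO mice. This was Slc1a6, the glutamate transporter EAAT4, with 460 ± 54.5 in KO and 342 ± 36.2 in WT mice (SD, n = 6), and its log2 fold change was 0.42 (adjusted p = 0.0135 from limma). Slc1a6 is best known from Purkinje cells of the cerebellum, and it was still called without KO-Veh mouse 3. Slc17a8, a vesicular glutamate transporter, had -0.32 (adjusted p = 0.0572). By treatment, Slc38a2 and Slc1a1 had the smallest unadjusted p of the list (0.0032 and 0.213), with log2 fold changes of 0.14 (adjusted p = 0.416) and 0.06 (adjusted p = 0.728).

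Of 16 genes of calcium signalling after entry through the channel, 11 had positive values by genotype and 2 were called lower in KO mice. Camkk2, a kinase upstream of CaMKI and CaMKIV, averaged 7282 ± 692 in KO and 8950 ± 540 in WT mice (SD, n = 6), and its log2 fold change was -0.30 (adjusted p = 0.0112 from limma), and Calm3, one of the calmodulin genes, had -0.18 (adjusted p = 0.0342). Camkk2 was still called without KO-Veh mouse 3 and without WT-Mem mouse 3, and Calm3 was not. By treatment, Ppp3r1 and Ppp3cb, subunits of calcineurin, had the smallest unadjusted p of the list (0.0455 and 0.163), with log2 fold changes of 0.11 and 0.06.

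Memantine also blocks other ligand-gated channels, and of 7 such genes 5 were analysed here, all but Htr3b and Chrna9. Htr3a, the serotonin receptor channel of a class of cortical interneurons, averaged 291 ± 49.5 in KO and 199 ± 12.7 in WT mice (SD, n = 6), and its log2 fold change was 0.53 (adjusted p = 0.0113 from limma). Chrna10 had the largest value of the list, 0.73, and did not pass the threshold (adjusted p = 0.0914). By treatment, Chrna10 and Chrnb2 had the smallest unadjusted p of the list (0.126 and 0.264).

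**Figure D5:**
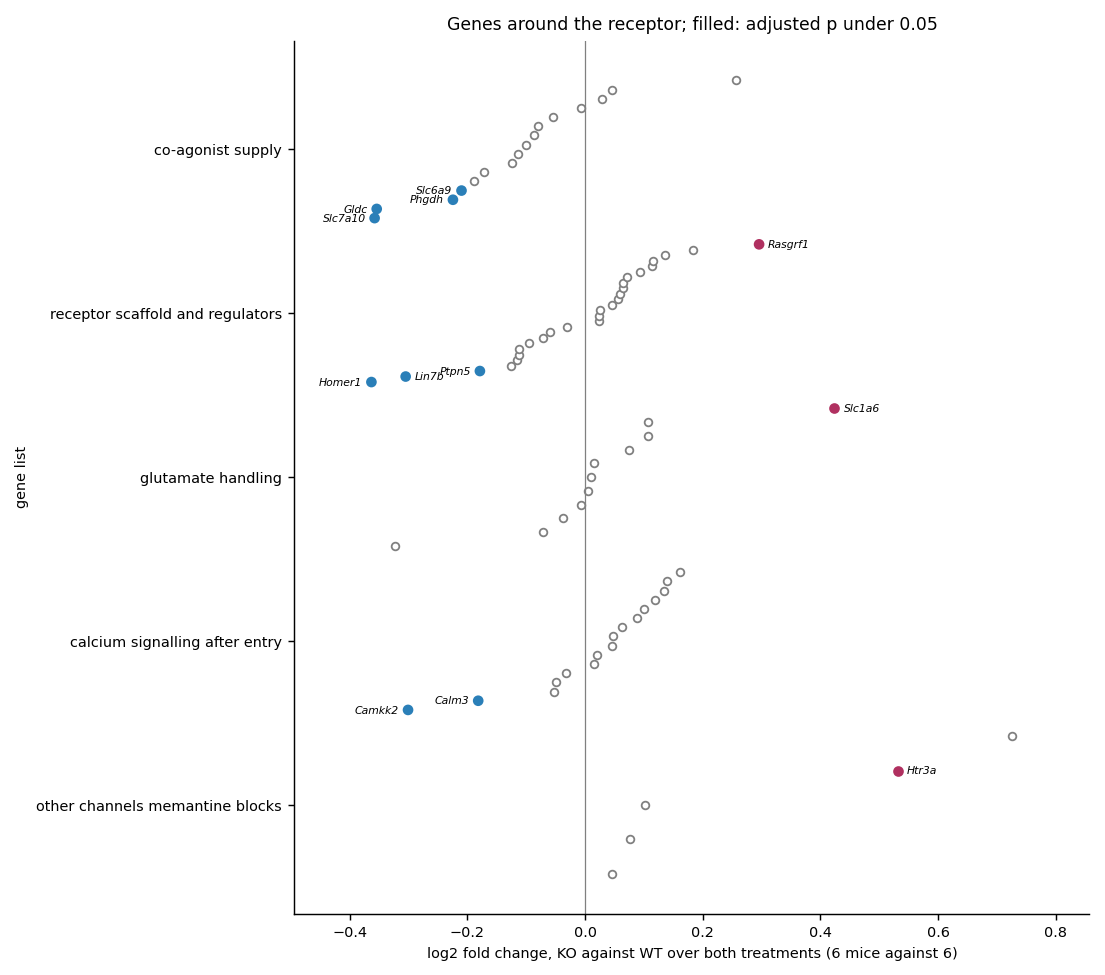
Log2 fold change of each list gene for KO against WT mice over both treatments (6 mice against 6), grouped by list and ordered by value within a list. Filled points passed the threshold, 3 of them above 0 (Rasgrf1, Slc1a6 and Htr3a) and 9 below 0, 4 of which are genes of co-agonist supply.

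The cell type markers by genotype over both treatments were as follows for the lists not yet given. Of 7 inhibitory neuron markers 3 were called higher (Gad2, Vip, and Lhx6) and 1 was called lower (Pvalb), of 5 excitatory neuron markers 1 was called lower (Nrgn), and of 6 thalamic markers 1 was called lower (Rorb). Of 4 endothelial markers 3 were called lower, as were 1 of 5 microglial markers and 1 of 3 markers of oligodendrocyte precursors. Whether called or not, positive values were seen in 4 of 7 inhibitory neuron, 2 of 5 excitatory neuron, and 1 of 6 thalamic markers. They were seen in 0 of 4 endothelial, 0 of 5 microglial, and 1 of 3 oligodendrocyte precursor markers. Without KO-Veh mouse 3, the mouse with cerebellar RNA, 0 inhibitory neuron markers were called higher, and 0 endothelial, 0 thalamic, and 0 microglial markers were called, while the 4 oligodendrocyte markers, Pvalb, and Nrgn still were. Calls over all genes fell from 1907 to 694 without that mouse. The list medians with all mice and without it were -0.234 and -0.233 (endothelial), -0.308 and -0.302 (microglial), -0.135 and -0.112 (thalamic), and 0.022 and 0.014 (inhibitory neuron). Without WT-Mem mouse 3, Vip was the 1 inhibitory neuron marker called, with 2 endothelial, 0 thalamic, and 0 microglial markers. None of 5 telencephalic, 6 striatal, 4 olfactory bulb, and 4 pan-neuronal markers passed the threshold. Positive values were seen in 1 of 5 telencephalic, 1 of 6 striatal, 4 of 4 olfactory bulb, and 2 of 4 pan-neuronal markers. Forebrain markers were present in every mouse, with summed telencephalic values between 8390 and 9924. Of 5 hindbrain markers only Slc6a5 was analysed here, with 180 in WT-Mem mouse 3 and between 12.9 and 85.6 in the other mice.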

How the data were processed

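RNA from 12 mice was sequenced after poly-A selection with paired ends. The authors quantified transcripts with Salmon 1.1.0 on GRCm38, summed them to genes with tximport, and deposited signal values, that is gene counts divided by DESeq2 1.26.0 normalization factors and not log transformed (tool versions from the submitters' processing notes). Sums over the deposited genes (30373849 to 31199251) were equalized by scaling and are not depths. From these values, limma 3.58.1 (R 4.3.3, trend of variance on the mean) was run on log2(value + 1), a scale that understates changes of low genes, for genes with a mean of at least 10. Each pairwise comparison used its own 6 mice, and the interaction and pooled effects used 12. P-values were adjusted over all genes tested. A count test, planned for raw counts only, was not used. Groups came from the sample labels. Symbols, positions, and lengths are from GENCODE M21, to which 19295 of the 19312 genes matched. The pore loop sequence of 1 member is not reported here. Fits were tested on simulated data in which 200 genes were given a set log2 change. In Veh-K/W, 0% of changes of 0.25, 27% of 0.5, and 63.5% of 1 were called. In genotype over both treatments these shares were 19.5%, 59%, and 88.5%. A member without a call may therefore still differ by changes of such sizes. Alternatives were pseudocounts of 0.5 and 5, a minimum mean of 50 or none, 2 other scalings, no variance trend, 12 mice in one fit, a replicate block, and leaving out each mouse. The members and gene lists were chosen with earlier results of these data known. The text names all members, Shank2, list genes that passed the threshold, the 2 list genes with the smallest p by genotype and by treatment, and the 3 genes most like each member.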

Additional observations from a re-analysis of the deposited data

How the results depend on the processing

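Of 1041 member fold changes recomputed under the alternatives, 984 kept their direction and their side of the threshold. Grin2c in genotype over both treatments was called under all alternatives except a variance prior without a trend, which left 0 members called. In KO-M/WT-V, 1 member, Grin2c, was called with 12 mice in one fit. With each mouse left out in turn, 0 to 1 members were called in KO-M/WT-V and 0 to 1 in Mem-K/W, in each case 1 without KO-Mem replicate 3. Upper quartile scaling turned Grin2a in WT-M/V to -0.0061, Grin1 in WT-M/KO-V to -0.013 (-0.019 with equal sums), and Grin2b in the interaction to 0.011. Fold changes near 0 turned sign when a mouse was left out, the largest of these having a size of 0.21, and their ranges on the log2 scale were as follows. Grin1 ran from -0.012 to 0.0068 in WT-M/KO-V. Grin2a ran from -0.0081 to 0.093 in Veh-K/W, from -0.10 to 0.13 in Mem-K/W, from -0.011 to 0.088 in KO-M/V, from -0.075 to 0.16 in WT-M/V, from -0.10 to 0.13 in WT-M/KO-V, from -0.13 to 0.10 in the interaction, from -0.029 to 0.076 by genotype, and from -0.017 to 0.088 by treatment. Grin2b ran from -0.051 to 0.27 in Mem-K/W, from -0.046 to 0.059 in KO-M/V, from -0.10 to 0.23 in WT-M/V, from -0.26 to 0.067 in WT-M/KO-V, from -0.21 to 0.11 in the interaction, and from -0.035 to 0.11 by treatment. Grin2d ran from -0.016 to 0.089 in WT-M/V, from -0.068 to 0.0073 in KO-M/WT-V, and from -0.0099 to 0.049 by genotype. Grin3a ran from -0.061 to 0.023 in KO-M/V and from -0.0089 to 0.038 by treatment. Grin3b ran from -0.081 to 0.53 in WT-M/V and from -0.29 to 0.10 by treatment. The log2 ratio of Grin2b to Grin2a ran from -0.036 to 0.025 in KO-M/V, from -0.043 to 0.064 in WT-M/V, and from -0.030 to 0.031 by treatment. The difference of that ratio by genotype lay between 0.10 and 0.14 (unadjusted exact permutation p between 0.00866 and 0.0216). With all mice, its exact permutation p adjusted over the 8 comparisons of the ratio was 0.0866, which did not pass 0.05.

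Counts over all genes moved more than those of the members. Without the variance trend 894 genes changed by genotype against 1907, 7 in KO-M/WT-V against 595, 4 in Mem-K/W against 12, and 0 in WT-M/KO-V against 4. With 12 mice in one fit, 2067 changed in KO-M/WT-V, 636 in Mem-K/W, 2 against 5 in Veh-K/W, and 0 against 2 in WT-M/V. Pseudocounts of 0.5 and 5 left 3 genes in Veh-K/W and 1 in WT-M/V, and a minimum mean of 50 left 2 and 0. Leaving out 1 mouse gave 694 (without KO-Veh replicate 3) to 2683 (without KO-Mem replicate 3) genes by genotype, 1 (without KO-Mem replicate 1) to 2490 (without KO-Mem replicate 3) in KO-M/WT-V, 2 to 53 in Veh-K/W, 2 to 1911 in Mem-K/W, 1 to 3 in WT-M/V, 0 to 97 in KO-M/V, 1 to 5 in WT-M/KO-V, and 0 to 4 in the interaction. The count by genotype was 1.5 times smaller or more without WT-Veh replicate 2, KO-Veh replicate 3, KO-Mem replicate 1 or 2, or any one WT-Mem mouse. A fit with the replicate block gave 999 genes in KO-M/WT-V, 2 in Veh-K/W, 4 in Mem-K/W, 1 in WT-M/V, and 2 in WT-M/KO-V, and kept Grin2c as the 1 member called by genotype (adjusted p = 0.0255). The same-number mice did not deviate together (18 correlations between -0.18 and 0.08), so the numbers were not taken to pair the mice. Leaving out a mouse that stood apart, chosen after seeing the data, gave 5 (KO-Veh replicate 3), 8 (WT-Mem replicate 3), and 12 (WT-Veh replicate 3) of the list genes by genotype against 12. KO-Mem replicate 1 was not among the mice left out for this count. Grin3b, with a mean of 20.7, was not tested at a minimum mean of 50, and its low values limit its precision. The cause of these shifts was not tested.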
